A study of Mus musculus with 8 samples.

Results

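The cells described here are 275 of the 2812 cell barcodes of 1 pancreatic tumor, 9.78% of them (exact 95% binomial interval 8.71 to 10.9%), in which a run of neighbouring genes on chromosome 9 took a large share of the RNA counts. They were selected on the summed unique molecular identifiers (UMIs, each standing for 1 captured mRNA molecule) of Dync2h1, Dcun1d5, Tmem123, Birc2, Birc3 and Yap1, called the block here, which had to reach 1500 counts per 1000000 UMIs of the cell (CPM). The 1899 comparison cells lay below 600 CPM and had a UMI of at least 4 of 11 epithelial genes (the keratins Krt7, Krt8 and Krt18, the claudins Cldn3, Cldn4 and Cldn7, and Cdh1, Elf3, Muc1, Spint2 and Tspan8). Between the limits lay 320 cells, and 318 cells were low in the block without enough epithelial markers. Because the 6 block genes chose the cells, their levels are given as a description.

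The series holds single-cell 3′ RNA counts of 4345 cells from 2 pancreatic ductal adenocarcinomas of untreated KPC mice, 1 of medium and 1 of large size. KPC mice carry LSL-Trp53 R172H and Pdx-1-Cre, so the mutant allele is switched on where the Pdx1 promoter has driven Cre, and the age of the mice was not given in the sources used here. Each tumor is 1 sample whose 4 technical replicates were pooled, so no comparison below has replicates, no p-value was computed, and intervals cover counting error only. Members and comparison cells come from the medium tumor, with 2832 to 47440 UMIs (median 9236) in the members and a median of 5789 in the comparison cells.

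Yap1 is the transcriptional coactivator held back by the Hippo kinases, and in the nucleus it works with TEAD factors on genes of growth and the cytoskeleton. Birc2 and Birc3 encode the cellular inhibitors of apoptosis cIAP1 and cIAP2, ubiquitin ligases that act in TNF receptor and NF-kB signalling. Dcun1d5 belongs to the family that helps attach NEDD8 to cullins, Tmem123 (porimin) is a surface glycoprotein, and Dync2h1 is the heavy chain of the motor that carries cargo back along the cilium. The stretch of mouse chromosome 9 that holds these genes corresponds to a part of human chromosome 11 that is gained in some carcinomas, and Yap1 and Birc2 are known as its cancer genes.

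The label of these cells as epithelial held for nearly all of them. At least 4 epithelial markers were seen in 269 of the 275 (97.8%, 95.3 to 99.2%), with a median of 7 markers per cell against 8 in the comparison cells. Of the other 6 cells, 2 were high in macrophage markers. Members made up 11.2% (9.93 to 12.5%) of the 2411 cells with at least 4 epithelial markers. Whether each cell carried the recombined alleles of the model was not tested.

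By the GENCODE M21 annotation of GRCm38, the block genes lie in the order Dync2h1, Dcun1d5, Tmem123, Birc2, Birc3 and Yap1 over 1.08 Mb, from chr9:6928503 to chr9:8004596. Dync2h1 (minus strand) and Dcun1d5 (plus strand) point away from each other with 74 bases between their ends. Cep126, a gene for a centrosomal protein that was not part of the selection, comes next after Yap1 at chr9:8076461-8134294 on the minus strand. Because these genes were high together, their promoters are shown side by side. RefSeq (GRCm38.p6) has windows for all 7 of these genes. That of Dync2h1 (chr9:7177059-7177308) lies inside the gene as GENCODE has it, up to chr9:7184446. It is therefore not the start that faces Dcun1d5. The 250 bases before the start are printed below for Dcun1d5, the most abundant (chr9:7184255-7184504, plus), Birc3 (chr9:7873171-7873420, minus), Yap1 (chr9:8004597-8004846, minus) and Cep126 (chr9:8134447-8134696, minus), with capitals for GGAATG, the letters bound by TEAD, and for GGGA followed by 4 bases of any kind and CC, a form of the NF-kB site, on either strand.
Dcun1d5: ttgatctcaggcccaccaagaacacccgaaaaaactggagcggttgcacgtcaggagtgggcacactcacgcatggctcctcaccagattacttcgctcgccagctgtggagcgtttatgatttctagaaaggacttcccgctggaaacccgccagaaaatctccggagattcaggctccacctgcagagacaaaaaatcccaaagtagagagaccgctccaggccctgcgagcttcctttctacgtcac
Birc3: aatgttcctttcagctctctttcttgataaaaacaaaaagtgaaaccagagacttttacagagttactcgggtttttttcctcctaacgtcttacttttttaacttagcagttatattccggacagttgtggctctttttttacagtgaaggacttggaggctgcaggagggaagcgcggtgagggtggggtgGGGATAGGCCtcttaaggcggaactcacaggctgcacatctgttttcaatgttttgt
Yap1: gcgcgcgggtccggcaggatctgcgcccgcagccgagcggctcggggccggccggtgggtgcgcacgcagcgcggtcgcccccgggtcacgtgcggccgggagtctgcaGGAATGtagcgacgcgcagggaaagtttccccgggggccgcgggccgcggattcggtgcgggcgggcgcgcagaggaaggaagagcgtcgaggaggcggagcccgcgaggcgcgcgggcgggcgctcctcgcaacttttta
Cep126: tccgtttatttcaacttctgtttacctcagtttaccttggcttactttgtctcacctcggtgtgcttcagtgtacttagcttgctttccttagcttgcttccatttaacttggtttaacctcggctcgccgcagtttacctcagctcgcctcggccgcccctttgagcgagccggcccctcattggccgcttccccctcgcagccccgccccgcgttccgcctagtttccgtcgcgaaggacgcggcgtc
The windows differ widely in base composition, from 43.6% G and C in Birc3 and 54% in Dcun1d5 to 57.2% in Cep126 and 76.4% in Yap1, beside a median of 52.4% over 32851 windows of 27025 genes. The TEAD letters occur once in the Yap1 window, beginning 141 bases before the start, and in none of the other 6, while 12.6% of all windows hold them. The NF-kB letters occur once in the windows of Birc3 and Tmem123 and in 17.6% of all windows. Neither set of letters occurs in all 7 windows, of which that of Dync2h1 is not at the GENCODE start.

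The block share spread without a gap from the comparison cells to the members. In the members it had a median of 3974 CPM, with 1506 in the lowest and 66365 in the highest cell, against a median of 199 CPM in the comparison cells. In UMIs the members held a median of 40 (5 to 1421) and the comparison cells a median of 1 (0 to 14), with 554 comparison cells at 0. At 3000 CPM or more lay 179 members, at 6000 or more lay 87 and at 9000 or more lay 49. The 3 members just inside the limit had 1506, 1538 and 1592 CPM and the 3 cells just outside had 1494, 1491 and 1474. With 1 UMI fewer, 8 members would have been left out, and 24 cells were 1 UMI short of the limit.

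**Figure D1:**
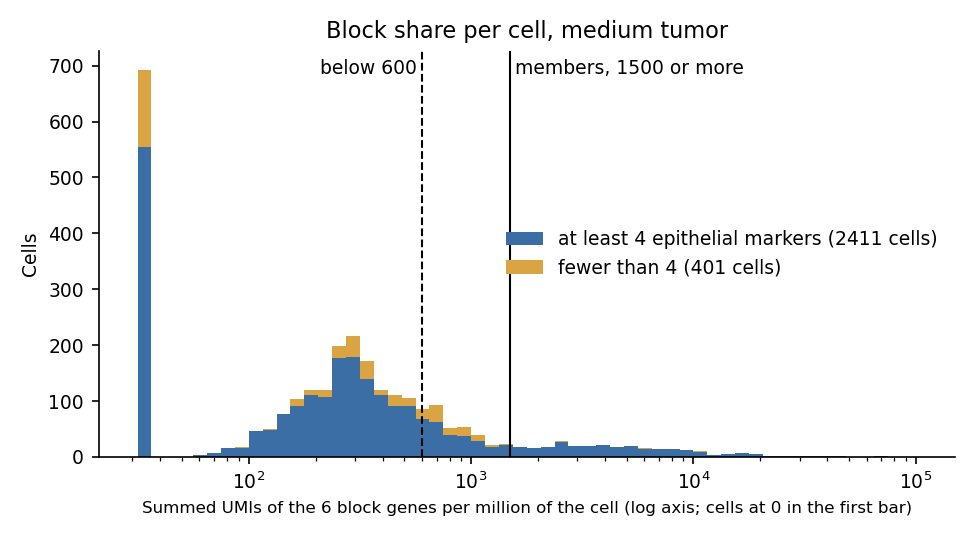
Number of cells of the medium tumor (vertical axis) by the summed UMIs of the 6 block genes in CPM of the cell (horizontal log axis), split by whether at least 4 epithelial markers were seen. The cells at 0 stand in the first bar, most cells lie between 100 and 600 CPM, and a long right tail beyond the solid line at 1500 holds the 275 members.

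The choice on the sum fixes that members hold more of the 6 genes than comparison cells, so the counts of genes seen describe only how the sum was made up. At least 4 of the 6 had a UMI in 224 members (81.5%, 76.3 to 85.9%) and in 30 comparison cells (1.58%, 1.07 to 2.25%). With every cell thinned to 2500 UMIs the shares were 37.1% (31.4 to 43.1%) and 0% (0 of 1899 cells). All 6 were seen in 73 members and in none of the comparison cells before thinning. Over the 275 members, the shares of the 15 pairs of block genes had Spearman correlations of 0.23 to 0.63 (median 0.40), highest for Dcun1d5 with Tmem123, a description over cells that share 1 library and are ranked on unequal depth.

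Dcun1d5 carried most of the block counts. In the members its per-cell level ran from 0 over a median of 2679 CPM to 53568 CPM, the last in a cell with 1147 Dcun1d5 UMIs. Summed over cells it stood at 4337 CPM (exact 95% Poisson interval 4265 to 4411, as in all brackets after a summed level) against 127 CPM (121 to 133) in the comparison cells. Of the block UMIs it took 68.3% in the members and 57.9% in the comparison cells. That top cell, in cluster 4 and with 10 epithelial markers, had 1421 block UMIs of 21412, and without it the members' block share was 5933 CPM instead of 6349, against 218 in the comparison cells.

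Yap1, the Hippo effector, had a UMI in 94.9% of the members and in 22% of the comparison cells, or in 73.8% and 7.58% after thinning. Its per-cell level in the members had a lowest value of 0, a median of 590.1 and a highest of 5638 CPM, while the median comparison cell had 0. The summed level was 817 CPM (785 to 849) against 37.0 CPM (33.8 to 40.3). The macrophage-marker cells of this tumor, taken as the background for Yap1, had it in 2.88% of 243 cells (2.47% after thinning; median depth 3503 UMIs), so the comparison cells lay above that level.

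The 2 apoptosis inhibitors were lower in abundance and detected in fewer cells. Birc2 was seen in 70.5% of the members (33.8% after thinning) and stood at 269 CPM (251 to 288) against 10.6 CPM (8.97 to 12.5), with a median of 151 and a highest cell of 3407 CPM. Birc3 was seen in 61.1% (30.9% after thinning) and stood at 171 CPM (157 to 186) against 10.3 CPM (8.71 to 12.2), with a median of 89.0 and a highest cell of 1967 CPM. Both genes were at 16.3 and 22.8 CPM in the macrophage-marker cells, so their level in the comparison cells was not above that of these cells.

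Tmem123 was seen in 90.2% of the members (64.7% after thinning), with a median cell at 403 CPM and the highest at 5540 CPM. Its summed level was 689 CPM (660 to 718) against 29.5 CPM (26.7 to 32.5). Dync2h1, the ciliary motor at the left end of the block, was the least abundant of the 6. It was seen in 40.4% of the members (13.8% after thinning), with 206 UMIs and 66.2 CPM (57.4 to 75.8) against 61 UMIs and 4.44 CPM (3.4 to 5.70), and the highest member cell had 943 CPM.

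Cells chosen on a sum tend to be high in each of its parts, so each gene was also read in cells ranked without it. When the 275 highest and 1899 lowest cells were ranked by the other 5 genes, the ratios of high to low cells were 12.6 for Dync2h1, 24.2 for Dcun1d5, 19.3 for Tmem123, 23.4 for Birc2, 13.3 for Birc3 and 19.2 for Yap1. As first chosen they were 14.9, 34.3, 23.4, 25.3, 16.6 and 22.1. When the UMIs of each cell were split at random and only 1 portion chose the cells, the other portion gave 13.1, 29.8, 19, 22.6, 13.2 and 20 in the same order, although there the gene's own UMIs still helped to choose the cells.

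Cep126, which took no part in the choice, was almost restricted to the members. Of its 169 UMIs in the medium tumor 150 (88.8%) were in members, and the summed level was 48.2 CPM (40.8 to 56.5) against 1.02 CPM (0.557 to 1.71), a ratio of 47.3 (27.3 to 88.6). It was seen in 69 members (25.1%) and 14 comparison cells (0.737%), with a top member cell of 11 UMIs that held 7.33% of the members' total. Among cells with at least 4 epithelial markers, Cep126 stood at 10.9 CPM (5.64 to 19.1) in the 94 members with a block share of 1500 to 3000 CPM and at 17.8 CPM (10.6 to 28.2) in the 89 up to 6000. In the 38 members up to 9000 it stood at 88.5 CPM (62.9 to 121), and in the 48 above at 149 CPM (119 to 186). The 67 cells just below the members, at 1000 to 1500 CPM, had 0 UMIs of Cep126. A count of 0 is read here as allowing up to 3 UMIs, which is 4.60 CPM in these cells.

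**Figure D2:**
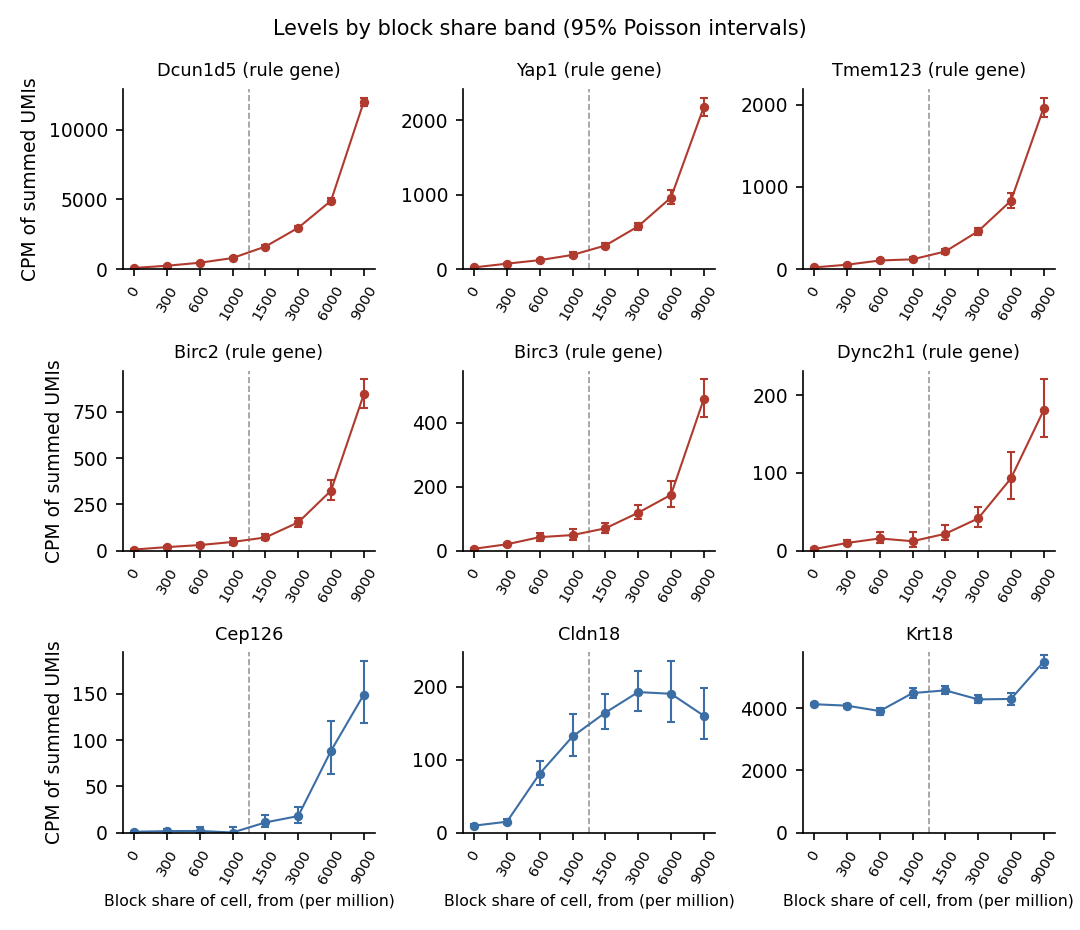
Level in CPM of summed UMIs (vertical axes, with exact 95% Poisson intervals) of the 6 block genes, Cep126, Cldn18 and Krt18 in cells with at least 4 epithelial markers, by the lower limit of the cell's block share in CPM (horizontal axes, members right of the dashed line). Cep126 follows the block up to 149 CPM in the highest band, while Cldn18 levels off at 160 to 193 CPM within the members and Krt18 stays between 4278 and 5491 CPM there.

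The stretch of high genes ended on both sides. Beyond Dync2h1 the next gene with at least 50 UMIs over members and comparison cells is Pdgfd, a growth factor gene 0.55 Mb away, with 1 UMI in the members and 98 in the comparison cells. Beyond Cep126 it is Arhgap42, a RhoGAP gene 0.86 Mb away, at 14.5 CPM (10.5 to 19.3) against 23.5 CPM (21.0 to 26.2), a ratio of 0.615 (0.440 to 0.842), where the brackets after a ratio give its exact 95% interval from both counts. The whole stretch from Dync2h1 to the far end of Cep126 is 1.21 Mb. Among the 77 gene rows within 10 Mb of Yap1 that were not in the block, 38 had at least 50 UMIs. With 10 CPM added to both levels, 6 of these 38 were higher by 1.5 times or more, where 3.61% of all 10658 genes with at least 50 UMIs were, and 8 were lower, where 12.2% of all these genes were. Weighted within expression clusters, as described below, only 4931406C07Rik of these 8 was still past 1.5 times, at a log2 ratio of −0.75. Pdgfd was then at −0.16. Over 6857 windows of 5 neighbouring genes that hold no block gene, the highest median log2 ratio was 0.74, for Sh3glb1 to Bcl10 on chromosome 3. In the lower direction the medians reached −2.98 around Reg3b, Reg1 and Reg3g on chromosome 6 and −2.09 around the Mcpt genes on chromosome 14. With the weighting within clusters, the window from Sh3glb1 to Bcl10 stood at 0.33. The Reg windows then stood at −0.36, which is not past 1.5 times, and the Mcpt windows at −1.36.

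**Figure D3:**
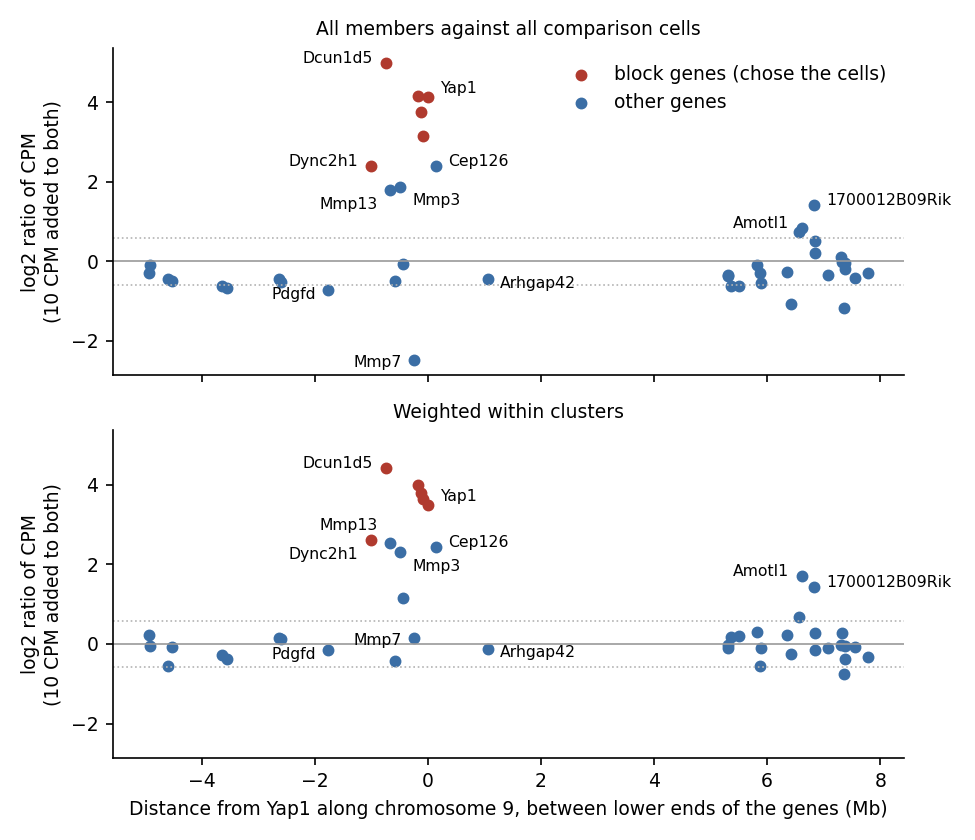
Log2 ratio of the level in members to that in comparison cells, with 10 CPM added to both (vertical axes), by distance from Yap1 along chromosome 9 in Mb (horizontal axis), for genes with at least 50 UMIs, over all cells (top) and weighted within clusters (bottom). The block genes and Cep126 stand at 2.40 to 4.99 over all cells, Pdgfd and Arhgap42 on either side lie below 0, and a smaller group around Amotl1 stands above the dotted line at 1.5 times.

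Between Dcun1d5 and Tmem123 lies a cluster of matrix metalloproteinase genes, which cut extracellular matrix, and these moved in different directions. Of 10 listed, 5 had at least 50 UMIs over both groups. Mmp13, a collagenase, stood at 237 CPM (221 to 255) against 61.9 CPM (57.9 to 66.2), but it was seen in 78 members and the 10 highest of them held 72.5% of its UMIs. It was also higher within cluster 4 (128 against 18.2 CPM, a ratio of 7.05, 4.87 to 10.4) and within cluster 5 (274 against 38.8 CPM, a ratio of 7.06, 4.00 to 13.8), where it stood at 174 CPM and a ratio of 4.50 (2.54 to 8.79) without its highest member cell. The members at 9000 CPM of block share or more held 51.4% of its UMIs in members, and those of them with at least 4 epithelial markers stood at 701 CPM, while the 3 lower bands of members stood at 131, 185 and 63.5 CPM. A single cell held 187 of the 380 UMIs of that highest band, which stood at 370.5 CPM without it. Mmp3 had 131 UMIs in the members, 99 of them in 1 cell, which lay in cluster 7, and stood at 10.3 CPM without that cell against 4.15 CPM in the comparison cells, a log2 ratio of 0.52, which is not past 1.5 times. Mmp7 (matrilysin), 0.24 Mb before Yap1, was lower at 65.2 CPM (56.5 to 74.8) against 412 CPM (401 to 423), but weighted within clusters its log2 ratio was 0.14 in place of −2.49, and it stood at 40.7 and 38.8 CPM in cluster 5. In cluster 4 Mmp7 was at 43.4 against 74.9 CPM, a ratio of 0.579 (0.411 to 0.803). Mmp12 had a ratio of 0.429 (0.229 to 0.743). Mmp10 had one of 0.937 (0.693 to 1.25), with a log2 ratio of 1.15 when weighted within clusters.

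A second, smaller stretch on chromosome 9, about 6.6 Mb beyond Yap1, was high in a few members. Cwc15 (a spliceosome gene), Amotl1 (an angiomotin family protein that binds Yap1) and 1700012B09Rik were the other 3 neighbours past 1.5 times, at ratios of 1.71 (1.58 to 1.86) and 1.98 (1.69 to 2.31) for the first pair. Without its highest member cell Cwc15 had a log2 ratio of 0.54, which is not past 1.5 times, so that 4 of the 6 neighbours stayed past it when each was read without its own highest cell. 1700012B09Rik had 53 UMIs in 8 members, 45.3% of them in 1 cell, and 2 UMIs in the comparison cells. After these values had been seen, the 20 members with the highest share of Amotl1 (290.4 to 1949 CPM) were set against the other 255, with median depths of 9647.5 and 9101 UMIs. Amotl1 chose these 20 cells, and the other genes did not.

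In those 20 members Cwc15 stood at 1425 CPM (1267 to 1596), against 170 CPM (155 to 185) in the other members. The genes on the far side of Amotl1 followed it as well. Mre11a, of the DNA break repair complex, was at 86.0 CPM (51.0 to 136) against 7.92 CPM (5.02 to 11.9), and Ankrd49 at 43.0 CPM (19.7 to 81.7) against 3.44 CPM (1.65 to 6.33). 1700012B09Rik was at 206 CPM (149 to 277) in the 20, from 3 cells. Endod1, on the near side, was at 38.2 CPM (16.5 to 75.4) against 6.2 CPM, and at 28.8 CPM over the comparison cells. Further out the levels met again, with Panx1 at 4.78 CPM (0.121 to 26.6) against 3.79 CPM and Taf1d at 19.1 CPM (5.21 to 49.0) against 32.0 CPM. The block itself was of like size in both sets of members, with Dcun1d5 at 4130 and 4352 CPM, Cep126 at 47.8 and 48.2 CPM and Yap1 at 1099 CPM (962 to 1251) and 796 CPM (764 to 829).

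The same ranking was made in the comparison cells, where Cwc15 did not stand higher in the top 20. The 20 comparison cells highest in Amotl1 (357 to 886 CPM) had Cwc15 at 118 CPM (67.5 to 192), against 149 CPM in the other 1879. They had 0 UMIs of 1700012B09Rik, Ankrd49 and Mre11a, each of which allows up to 22.2 CPM, a limit above the 0.147 to 6.40 CPM of these genes in the other comparison cells. Endod1 was at 51.7 CPM (20.8 to 107) in them and at 28.6 CPM in the other comparison cells. Of the 20 members, 15 were in cluster 5 and 3 in cluster 4, while none of the 20 comparison cells was in either. The median depth of these comparison cells was 6683.5 UMIs.

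**Figure D4:**
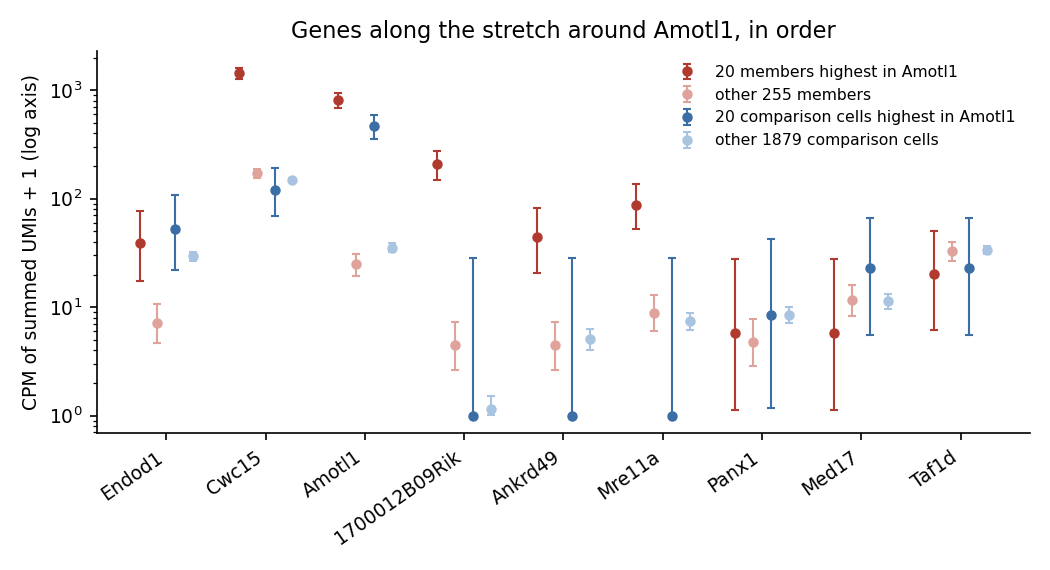
Level in CPM of summed UMIs plus 1 (vertical log axis, with exact 95% Poisson intervals) of 9 genes in their order on chromosome 9 around Amotl1, in the 20 members and the 20 comparison cells highest in Amotl1 and in the rest of each group. From Cwc15 to Mre11a the 20 members stand above the other 3 sets, apart from Amotl1 itself, which ranked the cells and is high in both sets of 20, and from Panx1 on the sets overlap.

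The rest of chromosome 9 lay in the other direction. Over its 351 genes further than 10 Mb from Yap1 with at least 200 UMIs, the median log2 ratio was −0.56, beside −0.15 over all 7165 genes so tested, and it was the lowest of the 20 chromosomes, before chromosome 14 at −0.36. Of these 351 genes 163 (46.4%) were lower by 1.5 times or more and 3 (0.855%) higher, where over all genes 1100 (15.4%) were lower and 303 (4.23%) higher. Over all cells the lower level held along the whole length, with medians of −0.46 to −0.67 in 8 bins of 15 Mb. Cldn18, at chr9:99689461-99717267, lies in this stretch and was high in the members, as described with the other genes below. DNA copies were not measured.

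Part of this difference went with the clusters in which the members lay. When the comparison cells of each cluster were weighted to the members' own spread over clusters, the chromosome 9 median was −0.22 beside −0.07 over all genes, 12.3% of its genes were lower beside 5.61%, and chromosome 18 had the lowest median at −0.23. So weighted, the bins were less even, with medians from −0.40 at 25 to 40 Mb to −0.08 at 100 to 115 Mb. Inside cluster 4 the chromosome 9 median was −0.52 beside −0.08, with 45.1% of 82 genes lower beside 11.5% of all 2194. Inside cluster 5, where 34 comparison cells remained, it was −0.10 beside −0.02, with 4.55% of 44 genes lower beside 2.95% of all 1422.

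**Figure D5:**
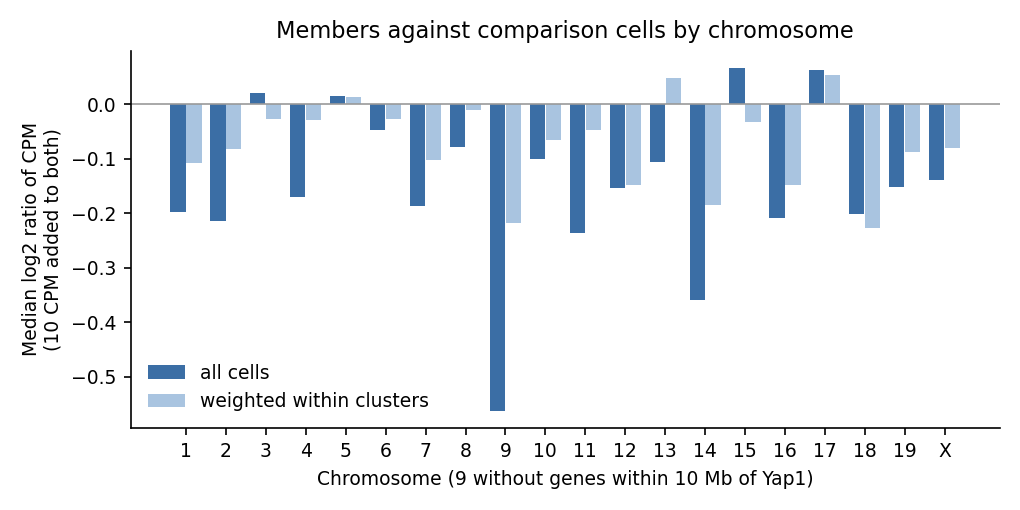
Median log2 ratio of members to comparison cells (vertical axis, 10 CPM added to both levels) over the genes of each chromosome with at least 200 UMIs (horizontal axis), over all cells and weighted within clusters, with block genes and the 10 Mb around Yap1 left out of chromosome 9. Chromosome 9 has the lowest bar over all cells at −0.56, and weighted within clusters it stands at −0.22, next to chromosome 18 at −0.23.

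The members fell mostly into 2 of 14 expression clusters. Cluster 5 (268 cells) held 178 of them, or 64.7% (58.8 to 70.4%), and its 10 leading genes included 5 block genes besides Cldn18, Aldh3a1, Tm4sf1, Serpinb9b and Prkg2. Cluster 4 (293 cells) held 82, or 29.8% (24.5 to 35.6%), and was led by genes of cell division such as Ube2c, Birc5, Cenpf and Top2a. Of the comparison cells 1.79% (1.24 to 2.49%) were in cluster 5 and 9.27% (8.0 to 10.7%) in cluster 4. The other 15 members were spread over 7 clusters. With the genes within 10 Mb of Yap1 left out of the clustering, 255 of the 275 members still lay in 2 clusters, 163 in one and 92 in the other.

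Cep126, which took no part in choosing the cells, was higher in the members of cluster 4, at 47.7 CPM (35.9 to 62.1) in 82 members and 2.02 CPM (0.551 to 5.18) in 176 comparison cells. In cluster 5 it had 94 UMIs, or 51.0 CPM (41.2 to 62.4), in 178 members and 0 in 34 comparison cells, which allows up to 9.70 CPM. Yap1, whose difference is fixed by the choice in any cluster, stood at 661 and 32.9 CPM in cluster 4 and at 930.5 and 84.1 CPM in cluster 5.

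Away from the block, 303 of 7165 genes were higher by the 1.5 times rule and 1100 lower, so that 21.6% of the called genes were higher. TMM scaling adds 0.19 to a log2 ratio of CPM to which nothing was added. With 10 CPM added, it moved the median over all genes from −0.15 to −0.007. Under it 589 genes were higher and 723 lower, 44.9% higher. List medians nearer to 0 than 0.19 are therefore given without a direction. Members were also deeper than comparison cells, and with comparison cells weighted to the members' depths 248 genes were higher and 984 lower. The part of depth, of cluster makeup and of scaling in single values was not tested beyond the alternatives named. Of the 303 higher genes 62 were also past 1.5 times when weighted within clusters, and of the 1100 lower genes 272 were.

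Cldn18, a tight junction claudin of stomach and lung epithelium, was seen in 72% of the members (34.9% after thinning) and in 3.90% of the comparison cells (1.95%). Its per-cell level in the members had a lowest value of 0, a median of 139 and a highest of 1704 CPM, and the median comparison cell had 0. The summed level was 177 CPM (162 to 192) against 11 CPM (9.31 to 12.9), a ratio of 16.1 (13.4 to 19.4). Unlike Cep126 it was already at 81.0 CPM (65.7 to 98.8) in the cells with a block share of 600 to 1000 CPM, and within cluster 5 it was at 183 CPM in members and 139 CPM in comparison cells, a ratio of 1.32 (0.958 to 1.86). Inside cluster 4 the levels were 166 and 15.7 CPM.

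Several other genes away from chromosome 9 stood out in the members. Tm4sf1, a tetraspanin-like surface protein, was seen in 96.4% of them and in 38.2% of the comparison cells, at 1582 CPM (1538 to 1626) against 181 CPM (173 to 188). Aldh3a1, an aldehyde dehydrogenase, was at 131 CPM (119 to 145) against 6.77 CPM (5.46 to 8.29). Prkg2, a cGMP-dependent kinase, was at 216 CPM against 30.0 CPM and Serpinb9b, a serpin, at 89.9 CPM against 8.01 CPM. Tm4sf1 differed within cluster 4 (1707 against 143 CPM) and, by less, within cluster 5 (1552 against 883 CPM), while Prkg2 had a ratio of 6.10 (4.77 to 7.87) within cluster 4 and of 0.899 (0.691 to 1.18) within cluster 5.

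Smaller ratios were seen for Pcolce, an enhancer of collagen processing, at 370 against 81.1 CPM, for Krt20 at 55.2 against 12.4 CPM and for the galectin Lgals1 at 4026 against 1442 CPM. Sdpr, Dpcr1, Rangrf, Dynap, Rbp4 and Creg1 had ratios of 3.09 to 5.28. Within cluster 5 Pcolce stood at 367 and 365 CPM and Krt20 at 54.2 and 74.4 CPM, while within cluster 4 Pcolce stood at 388 against 111 CPM and Krt20 at 58.1 against 2.53 CPM. Of the 15 genes with the highest ratios, 8 were still past 1.5 times when weighted within clusters, while Pcolce (0.49), Krt20 (0.24), Prkg2 (0.55), Sdpr (0.51), Dpcr1 (0.25), Dynap (0.31) and Rbp4 (0.30) were not. Crct1, a gene of the cornified envelope region, had the highest log2 ratio of the genes named outside chromosome 9, 3.41, but 1 member held 90% of its UMIs, and without that cell the log2 ratio was 0.72.

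The 15 genes with the lowest ratios included Epcam and several secreted proteins. Epcam, the epithelial adhesion molecule, was seen in 45.8% of the members and 85.6% of the comparison cells, at 189 CPM (174 to 205) against 1317 CPM (1298 to 1337), and was lower inside cluster 4 (166 against 627 CPM) and cluster 5 (179 against 262 CPM). Ly6d stood at 263 against 2419 CPM, Agr2 at 128 against 1101 CPM, Lcn2 at 45.3 against 573 CPM and Reg1 at 49.5 against 583 CPM. Ctla2a, Wfdc18, Reg3b, Npy, Reg3g, Tff3, Mcpt2, Hbb-bs, Inhba and Ly6k had ratios of 0.0479 to 0.119. Weighted within clusters, Ctla2a had a log2 ratio of 0.02 and Tff3 of 0.52, in place of −3.56 and −2.96 over all cells. Tff3 was still lower inside cluster 4, at 39.02 CPM in members against 109 CPM in comparison cells. It was higher inside cluster 5, at 80.8 against 19.4 CPM, where 34 comparison cells remained. A single member held 40.8% of the Tff3 UMIs of all members. Of these 15 genes, 9 were still past 1.5 times within clusters, among them Epcam at −1.11 and Agr2 at −1.47. Inside cluster 5, however, Agr2 stood at 98.7 CPM in members and 80.8 CPM in comparison cells and Npy at 32.5 and 19.4 CPM, while in cluster 4 Agr2 stood at 103 and 788 CPM. The calls of Ly6d (−0.50), Reg1 (−0.36), Inhba (−0.38) and Ly6k (−0.06) were lost.

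The other genes of the pathways in which the block genes act are described by their counts, beside 4.23% of all genes higher and 15.4% lower. Of 20 tested genes of the Hippo core and Yap1 partners, 2 were higher and none lower, with a median log2 ratio of −0.14. They were Amotl1, described above, and Amotl2 at 36.9 against 20.1 CPM, both angiomotins, and Amotl2 is also counted among the YAP targets below. The kinase genes Lats1 and Lats2 stood at 15.4 against 26.9 and 27.9 against 24.6 CPM, the Yap1 paralog Wwtr1 at 45.0 against 51.1 CPM and Tead1 at 22.8 against 28.4 CPM.

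Of 19 tested YAP target genes, 6 were higher and 3 lower, where 4.23% and 15.4% of all genes were, and the median was 0.17. The matricellular gene Cyr61 stood at 451 CPM against 172.4 CPM, Ankrd1 at 196 against 87 CPM, Axl at 99.9 against 61.1 CPM and Gadd45b at 147 against 93.4 CPM. Among cells with at least 4 epithelial markers, Cyr61 was already at 425 CPM in those at 1000 to 1500 CPM of block share. At 600 to 1000 CPM it was at 245 CPM, and in the rising bands of members at 431, 439, 483 and 505 CPM. Ctgf, often read together with Cyr61, was at 206 CPM in the members and 205 CPM in the comparison cells. Fjx1, Nt5e and Rbms3 were lower. Weighted within clusters Cyr61, Ankrd1 and Axl were still past 1.5 times, none of the 3 lower genes was, and the median was 0.18.

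Of 17 tested partners of the inhibitors of apoptosis and genes of cell death, 2 were higher and 1 was lower, with a median of −0.21. Higher were Birc5, which is also a mitosis gene, at 112 against 53.4 CPM and Htra2, a mitochondrial protease that binds inhibitors of apoptosis, at 47.9 against 20.8 CPM. Xiap was at 35 against 45.8 CPM. Weighted within clusters Htra2 was still higher, and Birc5 had a log2 ratio of −0.03. Of 19 tested NF-kB genes, 1 was higher and 2 lower, with a median of −0.12, among them Cxcl5 at 205 against 117 CPM and Lcn2, given above. Nfkbia, the inhibitor and target of the pathway, was at 226 against 281 CPM.

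The cullin neddylation list, with 19 tested genes, had none higher and 1 lower, Cul5, at 20.6 against 39.3 CPM, which was not past 1.5 times when weighted within clusters (a log2 ratio of −0.39). Its median was −0.07, and Dcun1d1, the paralog of Dcun1d5, was at 45.6 CPM in both groups. The list of retrograde ciliary transport had none of 19 higher and 3 lower, where 15.4% of all genes were lower, with a median of −0.15. Of the 3, Ift172 alone was still lower within clusters, and Dync2li1, the partner of Dync2h1 in the motor, was at 13.8 against 11.6 CPM.

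The epithelial state of the members differed by gene. Krt8 (2702 against 3173 CPM), Krt18 (4576 against 4109 CPM) and Krt7 (1455 against 1386 CPM) were within 1.5 times, while 6 of the 11 epithelial markers were lower, among them the claudins Cldn7 (56.8 against 349 CPM) and Cldn3 (42.7 against 253 CPM) and Cdh1, E-cadherin, at 136 against 270 CPM. Weighted within clusters 2 of these 6 were lower, Cldn7 and Elf3, while Cldn3 had a log2 ratio of 0.01 and Cdh1 of −0.49, and the list median was −0.18 in place of −0.93. The members had been taken without an epithelial limit and the comparison cells with one. Of 12 tested mesenchymal genes 3 were higher and 4 lower, with a median of 0.00. Vim, vimentin, stood at 1534 against 641 CPM, while Fn1, fibronectin, stood at 256 against 1186 CPM. Weighted within clusters Vim had a log2 ratio of 0.08 and Fn1 of −0.34, and only Lgals1 of these 7 genes was past 1.5 times.

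The gastric list had 3 of 11 tested genes higher, namely Cldn18, Tff1 at 2846 against 1493 CPM and Psca at 625 against 270 CPM, and 6 lower, among them Gkn1 at 569 against 3039 CPM, with a median of −0.72. Weighted within clusters Cldn18 and Psca were still higher and Gkn1 and Gkn3 lower, Tff1 had a log2 ratio of −0.02, and the median was −0.24. All 13 tested genes of the secretory and Reg list were lower, with a median of −2.69, and weighted within clusters it was −0.60 with 7 of the 13 lower. The list was written with earlier results of these data known. Of 8 tested basal genes 7 were lower, with a median of −1.01, but weighted within clusters 0 of these 7 were lower and the median was −0.29. Of 4 oncofetal genes 2 were lower, with a median of −0.57, and the same 2, En1 and Igf2bp2, were lower within clusters.

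Genes of cell division were higher over all members. Of 15 tested mitosis genes 13 were higher and none lower, with a median of 0.88, Ube2c at 126 against 47.1 CPM and Top2a at 81.6 against 29.9 CPM. Of 14 S phase genes 5 were higher, with a median of 0.48. Weighted within clusters these medians were 0.11 and 0.09 and 0 of the called genes were past 1.5 times, and 29.8% of the members but 9.27% of the comparison cells were in the dividing cluster 4. Of 14 tested genes of the list of p53 and cell cycle inhibitors 1 was higher, Cdkn2a at 504 against 313 CPM, and 3 were lower. Among these were Cdkn1a at 68.4 against 214 CPM and Ccnd2, which encodes a cyclin and not an inhibitor, at 45.6 against 258 CPM. Weighted within clusters only Ccnd2 of these 4 was past 1.5 times.

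Stress genes did not move one way. Of 17 immediate early genes 1 was higher, Myc at 46.2 against 24.9 CPM, and 6 were lower, such as Jun at 170 against 509 CPM, with a median of −0.47. Of 12 heat shock genes 3 were higher and 2 lower, with a median of −0.10. Of 17 hypoxia and glycolysis genes 3 were higher and none lower, with a median of 0.02, the highest of them Eno1 at 398 against 209 CPM. Weighted within clusters 0 genes of these 3 lists that had been called were past 1.5 times, and Myc had a log2 ratio of −0.35.

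Markers of most other cell types had lower sums in the members than in the comparison cells over all clusters. Macrophage markers summed to 354 CPM in the members and 784 CPM in the comparison cells, with 8 of 9 tested genes lower, but weighted within clusters 0 of these 8 were lower and the list median was 0.04 in place of −0.89. Granulocyte markers summed to 51.7 and 152 CPM, fibroblast markers to 84.1 and 276 CPM, endothelial markers to 28.9 and 70.0 CPM and red blood cell markers to 28.3 and 279 CPM. Within clusters the fibroblast median was −0.12 in place of −1.28, while all 4 tested red blood cell genes were still lower. Of these Hbb-bs, a beta globin gene, stood at 18.4 against 475 CPM in cluster 5, where 1 of the 34 comparison cells held 143 of their 147 UMIs, and at 18.2 against 27.3 CPM in cluster 4. Acinar markers summed to 31.8 and 161 CPM, smooth muscle and pericyte markers to 15.1 and 27.2 CPM, and B cell markers to 8.03 and 23.4 CPM. T and NK, endocrine and mast cell markers were each below 1 CPM in the members. Dendritic markers were at 30.2 against 18.6 CPM, nearly all Fscn1, and mesothelial markers at 489 against 316 CPM, nearly all Msln, with Upk3b and Upk1b at 0 UMIs in the members. Scrublet called 0 cells as doublets, and members and comparison cells had median doublet scores of 0.0444 and 0.0423.

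The large tumor was read at a median of 1037 UMIs per cell, where the limit of 1500 CPM can be passed with 1 or a few UMIs. It took 72 of 1533 barcodes at a median depth of 606 UMIs, of which 45 had 1 block UMI and the highest had 6, so whether they are like the members cannot be told from these counts. At least 4 epithelial markers were seen in 13 of the 72. Over the 497 cells of the large tumor with at least 4 epithelial markers, Dcun1d5 stood at 173 CPM (149 to 199) and Yap1 at 38.8 CPM (28.0 to 52.2), and Cep126 had 0 UMIs, which allows up to 2.70 CPM. Cldn18 stood at 175 CPM (151 to 201) there, next to 177 CPM in the members of the medium tumor. The tables of the 2 tumors share 5 barcodes, and at this depth the large tumor allows no statement on a small group of block-high cells.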

How the data were processed

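Single cells of the 2 KPC tumors were taken through the 3′ droplet kit of 10x Genomics (v2). The authors aligned the reads with Cell Ranger (version not given in the sources used here) to mm10, per the labels, and deposited whole-number UMI counts per gene symbol and cell barcode, without normalization. The tables held 20301669 and 2239012 UMIs, and 0 columns belonged to no sample. Here cells were grouped by the limits given, UMIs were summed per group, and CPM is that sum per 1000000 UMIs of the group. Calls used a ratio of 1.5 with 10 CPM added and at least 200 UMIs (50 near Yap1). Intervals are exact Poisson or binomial. Clusters came from Seurat 5.3.0 (2000 variable genes, 10 components, resolution 0.8) and TMM from edgeR 4.0.16. GENCODE symbols matched 95.2% of 27775 rows. Scrublet ran in scanpy 1.11.5 and no cell was removed. Named genes are the block, Cldn18, neighbours within 3 Mb, the 15 highest and 15 lowest ratios of genes with a UMI in 10% or more of the higher group, and the most abundant list members. Other list members, and the genes around Amotl1, were named after their values were seen. The members and lists were chosen with earlier results of these data known. Of the steps, only the log2 ratio of summed UMIs was tested on simulated data, as sums with known changes. R 4.3.3 and Python 3.11.15 were used, and the alternatives are given at the end. The genotype of the model is given in part, and the rest is not reported here.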

Additional observations from a re-analysis of the deposited data

How the results depend on the processing

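No p-value bears on these values, so their limits are the single tumor per size, the counting intervals, and cluster 5, where 34 comparison cells remain. No paired analysis was possible because the 4 technical replicates were pooled in each table. With 1 CPM added instead of 10, 474 genes were higher and 1675 lower, in place of 303 and 1100. TMM scaling gave 589 and 723, and weighting within clusters 151 and 402. Alternatives chosen after seeing the data gave 53 and 42 within cluster 5 and 87 and 253 within cluster 4, where fewer genes reached 200 UMIs, and 505 higher without cluster 5, for which the cause was not tested. The 6 neighbours past the fold became 3 with at least 200 UMIs and 3 within cluster 4. Of the gene lists, 13 had a median past the fold over all cells, 4 within clusters, 3 within cluster 5 and 4 within cluster 4. Other limits or a thinning of the cells gave 244 to 357 members. Of 144 called genes that the lists and rules name, 45 were past the fold the same way when weighted within clusters and 23 turned, and the cause was not tested. Lower over all cells but above 0 within clusters, on the log2 scale, were Tff3 at 0.52, Krt17 at 0.36, Ccng1 at 0.35, C1qa at 0.32, Tff2 at 0.32, Ctss at 0.23, Mmp7 at 0.14, Muc6 at 0.0895, Lyz2 at 0.0615, C1qb at 0.0401, C1qc at 0.0405, Ctla2a at 0.0226, Dynlt3 at 0.0237, Dcn at 0.0203, Pigr at 0.0183 and Cldn3 at 0.00832. Higher over all cells but below 0 within clusters were Myc at −0.35, Cdk1 at −0.27, Cdc20 at −0.21, Ccna2 at −0.17, Pgk1 at −0.0339, Birc5 at −0.0256 and Tff1 at −0.0216. Tff3 was nonetheless lower inside cluster 4, as given above. Within cluster 5 the balance of calls also turned, to more higher than lower.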
